A study of Mus musculus with 15 samples.

Results

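The growth factors that pass between the theca, the granulosa and the oocyte of the follicle were examined through 9 genes, the 5 ligands Kitl, Fgf7, Fgf10, Hgf and Igf1 and the 4 receptors Kit, Fgfr2, Met and Igf1r. They were taken by symbol from the 27907 genes of the deposited table, and each of the 9 was found there. Whole ovaries of 7 mice with a knock-in point mutation of Hsd17b1 (HSD17B1-KI) and of 8 wild-type mice (WT) had been frozen in estrus at the age of 6 months, and mRNA was sequenced with 1 library per mouse. The HSD17B1-KI females were homozygous for a germ line change, made with CRISPR/Cas9, of a serine of the HSD17B1 active site to alanine, and the change is thus carried by every cell of the mouse. The HSD17B1-KI and the WT females both came from matings of heterozygous mice. Neither group received a treatment. The questions were whether the mRNA of the ligands and of their receptors differed between the genotypes, and whether the balance between each ligand and its receptor differed.

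The layers of the follicle depend on each other through locally made ligands of receptor tyrosine kinases. KIT ligand is made by granulosa cells and reaches KIT on the oocyte and on theca and interstitial cells, while FGF7 (keratinocyte growth factor) and FGF10 are made by theca and stroma and bind FGFR2. HGF (hepatocyte growth factor) is a theca product that acts on MET of epithelial and granulosa cells, and IGF1, made mainly by granulosa cells in the mouse, amplifies the response to FSH through IGF1R.

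Expression is given as normalized counts, which are the reads counted on a gene divided by a size factor of the library. The reads counted on genes ranged from 26544745 to 72362981 over the mice, with medians of 43611091 in HSD17B1-KI and 45313571.5 in WT. Hsd17b1 mRNA, at 11650 ± 4351 normalized counts in HSD17B1-KI and 8829 ± 2952 in WT (SD, n = 7 and 8), did not pass the test (limma-trend adjusted p = 0.666). It carries no check of the genotype, since a point mutation leaves the transcript in place. Markers of the ovary were present, such as the oocyte factor Gdf9 at 2491 ± 419 normalized counts in HSD17B1-KI and 2340 ± 454 in WT. Oviduct markers (Ovgp1, Foxj1, Pax8 and Tekt1) stood highest in WT 1 and WT 8, with a mean log2 level of 13.1 and 12.8, against 4.29 to 10.7 in the other 13 mice. In a whole ovary, fewer cells of a type and less RNA per cell cannot be told apart.

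In HSD17B1-KI ovaries, Fgf7 was higher than in WT, and Kitl stood higher in every mouse, whereas Fgf10 stood lower in most mice. Of the 9 genes, 1 (Fgf7) passed limma-trend at an adjusted p under 0.05, against 0.214% of the 21525 genes tested, or 0.209% for genes higher in HSD17B1-KI. DESeq2 on the recovered reads called 3 of them (Kitl, Fgf7 and Fgf10), against 2.30% of the genes it tested. An unadjusted limma-trend p under 0.05 was found for 5 of the 9, namely Kitl, Kit, Fgf7, Fgf10 and Igf1, and for 10% of all genes (2153 of 21525). For 2 of the 9, Kitl and Fgf7, no HSD17B1-KI value overlapped the WT values, which was the case for 0.325% of all genes tested. All 9 passed the filter of a mean of 2 normalized counts over the 15 mice. As the 9 genes were chosen with results of these same mice known, their direction is not independent evidence.

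**Figure D1:**
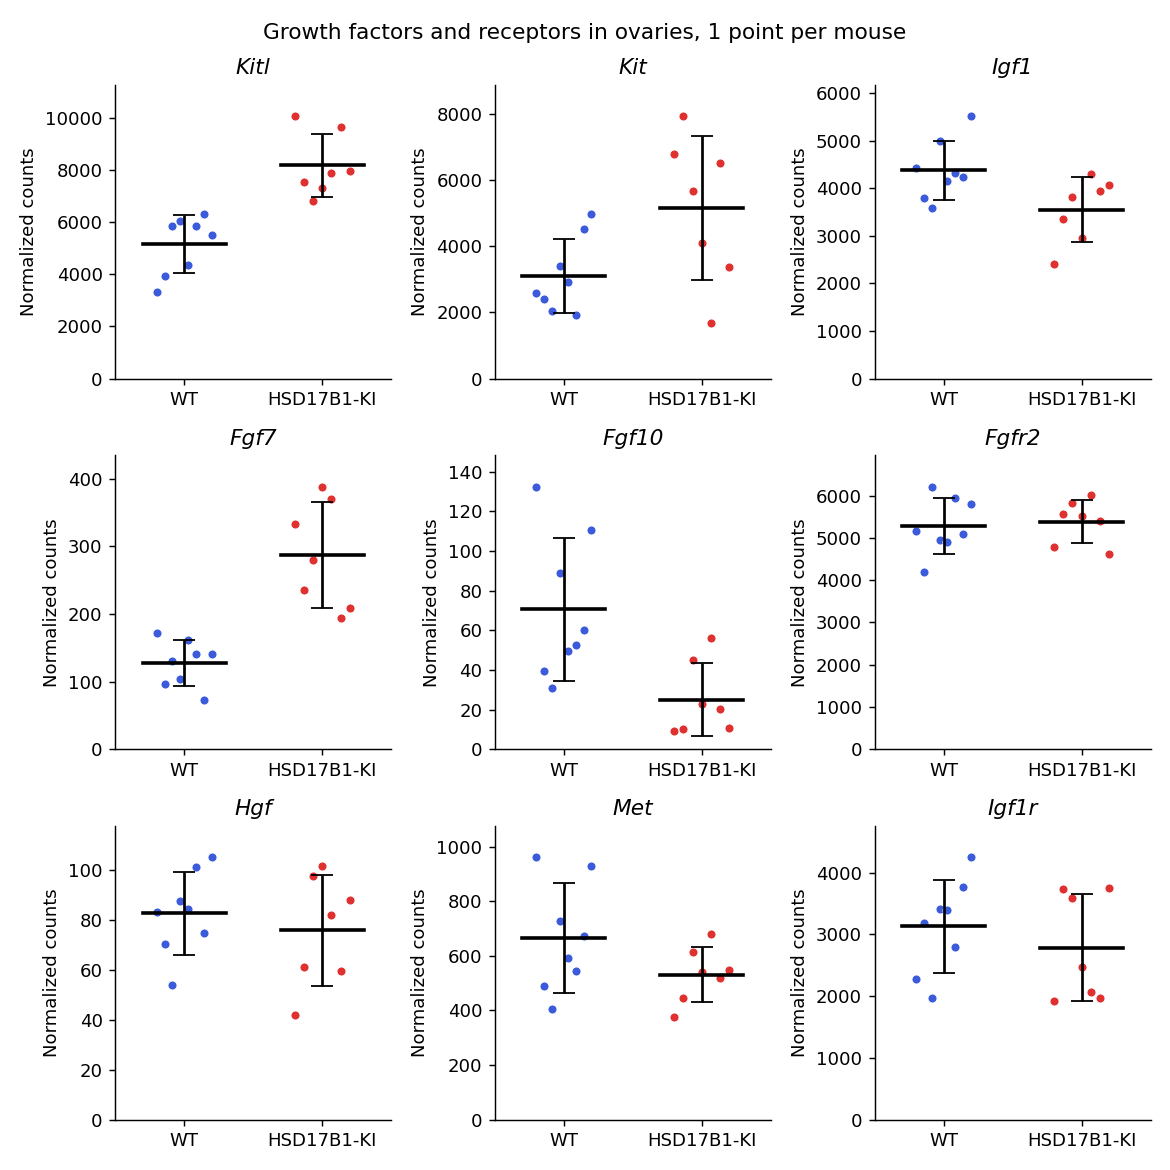
Normalized counts of the 9 genes in each mouse (points), with the mean and SD of each genotype, on a linear axis that starts at 0. Values of HSD17B1-KI and WT do not overlap for Kitl and Fgf7, and for Fgf10 5 of 7 HSD17B1-KI values lie below every WT value.

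Among the ligands with the clearest values were 3 genes on different chromosomes, whose sequence before the start site is shown because Fgf7 and Fgf10 share a receptor and stood on opposite sides, and because Kitl was the other ligand with no overlap. RefSeq (GRCm38.p6) gave a start site for all 9 genes, and the 250 bases before it were read 5′ to 3′, on the plus strand at chr2:126034408-126034657 for Fgf7 and chr13:118714449-118714698 for Fgf10. For Kitl, a stretch of 30 bases at chr10:100015773-100015802 is given, which lies before the start of 1 transcript and inside a longer one. The window of Fgf10 likewise lies before the RefSeq start but inside the gene as GENCODE draws it, which begins farther upstream. Kit and Hgf had more than 1 start, so that 11 windows were searched for the 9 genes. The windows of Met and Igf1, and 1 window of Hgf, lie past the first RefSeq start of the gene.
Fgf7: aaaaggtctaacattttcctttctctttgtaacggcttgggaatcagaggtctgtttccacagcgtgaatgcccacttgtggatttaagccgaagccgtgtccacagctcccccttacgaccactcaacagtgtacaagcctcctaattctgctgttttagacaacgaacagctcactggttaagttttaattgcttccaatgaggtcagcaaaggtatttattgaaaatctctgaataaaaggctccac
Fgf10: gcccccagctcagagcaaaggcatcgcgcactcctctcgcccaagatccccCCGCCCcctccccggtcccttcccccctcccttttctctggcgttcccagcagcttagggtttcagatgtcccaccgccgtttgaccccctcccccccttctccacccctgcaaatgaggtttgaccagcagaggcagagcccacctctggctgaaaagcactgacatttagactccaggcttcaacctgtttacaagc
Kitl: ggcGGGCGGGCGGgagggagctgTATAAAa
Capitals mark matches, on either strand, to the GC box GGGCGG or the TATA box TATAAA, and matches of the GC box may overlap. The search also covered the SF-1 site AAGGTCA, bound by the steroidogenic factor of gonadal cells, and the androgen receptor half-site AGAACA. The window of Fgf7 held none of the 4 motifs and had a GC content of 43.6%. Fgf10 held 1 GC box at a GC content of 61.2%. Kitl held 3 GC boxes, of which 2 overlap in the stretch shown, and 1 TATA box at 69.2% GC. Among the 32851 windows of the same length, 32.7% held a GC box, 12.4% a TATA box, 4.08% an SF-1 site and 16.1% an androgen receptor half-site. An SF-1 site was found in the window of Igf1r only among the 9 genes, and the absence of letters from a window says nothing about a factor.

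Kitl (ENSMUSG00000019966, chromosome 10, 100015630 to 100100416, plus strand, mm10) encodes the ligand that keeps oocytes growing and recruits theca cells. Its normalized counts were between 6824 and 10056 in HSD17B1-KI, with a median of 7889, and between 3325 and 6297 in WT, with a median of 5680. The lowest HSD17B1-KI mouse thus stood above the highest WT mouse, and WT 1, WT 2 and WT 5 were the lowest of all. The ratio of the means was 1.59, from 8181 ± 1214 to 5148 ± 1115 (SD, n = 7 and 8), and the log2 fold change was 0.69 (SE 0.14, 95% interval 0.39 to 0.98). In the exact permutation test over all 6435 splits of the mice, two-sided, p was 0.000311. Adjusted over all genes, Kitl missed the threshold with limma-trend (adjusted p = 0.0566) and edgeR (0.0557) and passed it with DESeq2 (0.00143). With 1 mouse left out, it passed only without HSD17B1-KI 5 (limma-trend adjusted p = 0.0494, at most 0.136 without another mouse). Gene counts do not separate the soluble from the membrane-bound form of the ligand.

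Kit (ENSMUSG00000005672, chromosome 5, 75574916 to 75656722, plus strand) encodes the receptor of KIT ligand, on oocytes and on theca and interstitial cells. Its counts were spread over 4.68-fold in HSD17B1-KI, between 1691 and 7918 with a median of 5675, and over 2.57-fold in WT, between 1931 and 4959 with a median of 2751. In 4 HSD17B1-KI mice the value was above every WT mouse, and in HSD17B1-KI 5 it was below every WT mouse. Thus the log2 fold change of 0.66 had a wide interval (SE 0.30, 95% interval 0.02 to 1.30) and did not pass limma-trend (adjusted p = 0.483). The exact permutation test gave p = 0.0690 on log2 values and 0.0390 on mean normalized counts. Without HSD17B1-KI 5, the log2 difference was 0.90 and the exact permutation p was 0.00733, but limma-trend did not call Kit (adjusted p = 0.107). When any other mouse was left out, the exact permutation p was between 0.0437 and 0.138. HSD17B1-KI 5 had a Kitl value of 7889, the median of its group, and thus the highest Kitl to Kit ratio of all mice, 2.22 on the log2 scale.

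Oocytes, mast cells, and theca and interstitial cells, which carry KIT, were read through their markers. Of the 11 oocyte markers none was called by limma-trend or DESeq2, 1 (Figla) had an unadjusted p under 0.05, their median log2 fold change was 0.09, and their summed level was between 9187 and 15090 normalized counts in HSD17B1-KI and between 10340 and 16930 in WT. Of the 8 mast cell markers none was called by limma-trend and 1 by DESeq2 (Hdc, lower), the median log2 fold change was 0.52, and their sum was between 1529 and 5057 normalized counts in HSD17B1-KI and between 1855 and 13580 in WT. The sum is mostly Hdc, at 1461 ± 624 in HSD17B1-KI and 4192 ± 4061 in WT (limma-trend adjusted p = 0.380), while 5 of the other 7 markers had positive log2 fold changes, from 0.44 to 1.03. The mast cell protease Cpa3 had a log2 fold change of 0.60 (limma-trend adjusted p = 0.536), and none of the 8 markers was at 0. All 6 theca and interstitial markers had positive log2 fold changes, with a median of 0.24, as did 9649 of the 21525 genes tested. None of the 6 was called by limma-trend and 1 by DESeq2 (Insl3, higher, limma-trend adjusted p = 0.110). The part of any of these cells in the Kit values was not tested.

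Fgf7 (ENSMUSG00000027208, chromosome 2, 126034658 to 126091185, plus strand) encodes a mesenchymal mitogen of epithelial cells. Its normalized counts were between 194 and 388 in HSD17B1-KI, with a median of 279.9, and between 72.2 and 171 in WT, with a median of 135.6. The groups did not overlap, although HSD17B1-KI 6, the lowest of its group, came close to WT 1, the highest of the WT mice. The log2 fold change was 1.17 (SE 0.20, 95% interval 0.74 to 1.60), and the exact permutation p of 0.000155 is the smallest that the 6435 splits allow. Adjusted over all genes, p was 0.0307 with limma-trend, 0.0320 with edgeR and 8.9e-06 with DESeq2. With 1 mouse left out, limma-trend kept the call in 6 of 15 cases, without HSD17B1-KI 5, 6 or 7 or WT 1, 5 or 7, and the adjusted p was between 0.0312 and 0.0800. Fam227b, which overlaps exons of Fgf7 on the other strand, had a mean of 1.29 normalized counts.

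Fgf10 (ENSMUSG00000021732, chromosome 13, 118669791 to 118792115, plus strand) encodes the closest relative of Fgf7 among the FGF genes. Its level was low, between 9.29 and 56.1 normalized counts in HSD17B1-KI with a median of 20.2, and between 30.8 and 132 in WT with a median of 56.3. These values rest on 8 to 69 reads per HSD17B1-KI mouse and 28 to 125 reads per WT mouse. In 5 HSD17B1-KI mice the value was below every WT mouse and all 7 were below the WT mean, while HSD17B1-KI 3 and 5, at 44.9 and 56.1, lay among the WT mice. The log2 fold change was -1.61 (SE 0.42, 95% interval -2.49 to -0.72), with an exact permutation p of 0.00466. Fgf10 passed with DESeq2 (adjusted p = 0.0256) and not with limma-trend (0.135) or edgeR (0.188), and among fits that left out 1 mouse limma-trend called it only without HSD17B1-KI 5 (0.0465, at most 0.296). Gm16263, an antisense gene that overlaps exons of Fgf10, had a mean of 1.57 normalized counts.

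Markers of adipose tissue, which also expresses FGF10, were read beside these values and used as a covariate. Whether they account for the difference of Fgf10 was not tested. Of the 5 markers tested none was called by limma-trend or DESeq2, but 4 were lower in HSD17B1-KI at an unadjusted limma-trend p under 0.05, with log2 fold changes of -1.82 for Adipoq, -1.76 for Lep, -1.53 for Cidec and -1.36 for Fabp4. Plin1, which coats lipid droplets, was higher in HSD17B1-KI, also at an unadjusted p under 0.05, with a log2 fold change of 0.44. Their sum was between 2551 and 8493 normalized counts in HSD17B1-KI and between 3142 and 11080 in WT, and none was at 0. With the mean log2 level of the adipose markers as a covariate, the log2 fold change of Fgf10 was -0.89 (limma-trend adjusted p = 0.752), that of Fgf7 was 1.23 (0.202) and that of Kitl was 0.62 (0.397). Without WT 1 and WT 8, in which Fgf10 was highest along with the oviduct markers, the log2 fold changes were -1.30 for Fgf10 (limma-trend adjusted p = 0.376), 1.28 for Fgf7 (0.0681) and 0.61 for Kitl (0.156). None of the 3 genes passed limma-trend in these 2 settings. Over the whole table, limma-trend called 0 genes with the adipose covariate and 9 without WT 1 and WT 8. It called 46 with all mice and genotype as the only term. With the oviduct markers as a covariate, the log2 fold changes were 1.17 for Fgf7 (limma-trend adjusted p = 0.0383), -1.45 for Fgf10 (0.133) and 0.67 for Kitl (0.0690), and with markers of the surface epithelium they were 1.32 for Fgf7 (0.0474), -1.14 for Fgf10 (0.361) and 0.66 for Kitl (0.175), so that Fgf7 passed in both. The difference of Fgf10 was smaller in all 4 settings than without them.

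**Figure D2:**
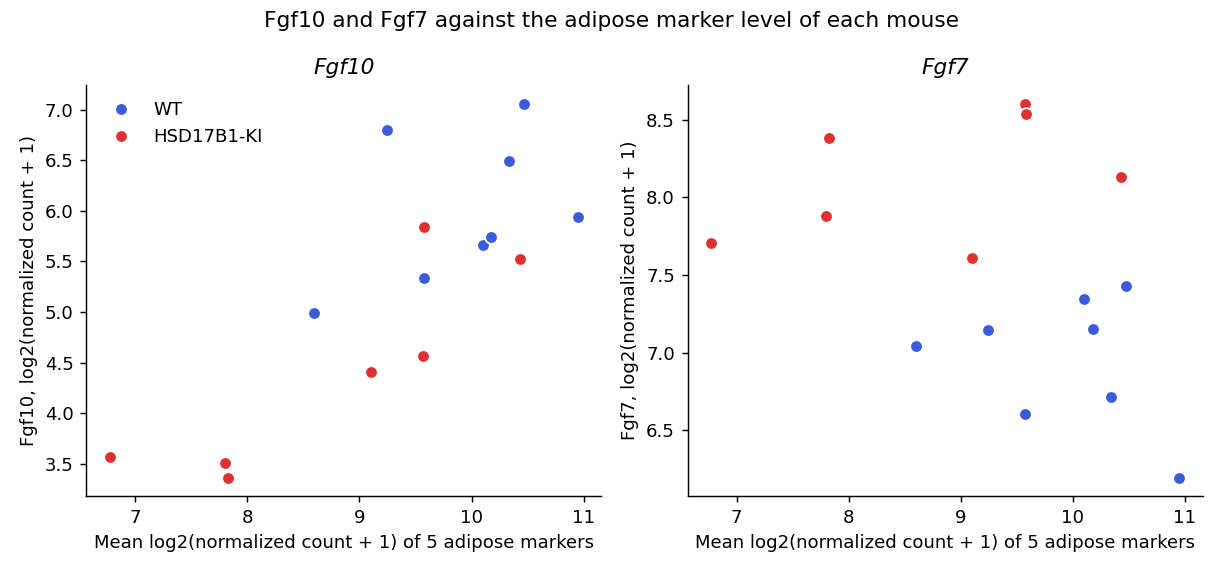
Log2(normalized count + 1) of Fgf7 and of Fgf10 in each mouse (y axis) against the mean log2 level of 5 adipose markers (x axis), with the genotypes in different colours. HSD17B1-KI 1, 2 and 7 have the lowest adipose levels, 6.77 to 7.83, and low Fgf10 values, while Fgf7 lies higher in each HSD17B1-KI mouse than in any WT mouse.

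Fgfr2 (ENSMUSG00000030849, chromosome 7, minus strand, 130162451 to 130266808 in RefSeq) encodes the receptor that FGF7 and FGF10 share. Its counts were between 4610 and 6006 in HSD17B1-KI, with a median of 5512, and between 4191 and 6205 in WT, with a median of 5131. The groups overlapped almost completely. The log2 fold change was 0.03 (SE 0.08, 95% interval -0.15 to 0.21, limma-trend adjusted p = 0.935), so that Fgfr2 had the narrowest interval of the 9 genes. The exact permutation p was 0.713. GENCODE lists Fgfr2 transcripts that run on into the exons of Ctbp2, on the same strand, and the epithelial and mesenchymal splice forms of the receptor are not separated in gene counts.

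Hgf (ENSMUSG00000028864, chromosome 5, 16553495 to 16620152, plus strand) encodes the scatter factor of mesenchymal cells. It was between 41.8 and 102 normalized counts in HSD17B1-KI, with a median of 81.7, and between 53.9 and 105 in WT, with a median of 83.7. The ranges overlapped, with HSD17B1-KI 1 the lowest of all mice. The log2 fold change was -0.15 (SE 0.20, 95% interval -0.58 to 0.28, limma-trend adjusted p = 0.855), and the exact permutation p was 0.462.

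Met (ENSMUSG00000009376, chromosome 6, 17463800 to 17573980, plus strand), the receptor of HGF, was between 375 and 679.5 normalized counts in HSD17B1-KI, with a median of 540.1, and between 405 and 961 in WT, with a median of 632. WT 1 and WT 8, the mice with the highest oviduct markers, had the highest Met values, 961 and 930.4. HSD17B1-KI differed from WT by a log2 fold change of -0.29 (SE 0.18, 95% interval -0.67 to 0.10, limma-trend adjusted p = 0.641), with an exact permutation p of 0.159. Without these 2 mice it was -0.10.

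Igf1 (ENSMUSG00000020053, chromosome 10, 87858265 to 87937042, plus strand) encodes the growth factor that supports granulosa cells of growing follicles. It was between 2405 and 4292 normalized counts in HSD17B1-KI, with a median of 3813, and between 3596 and 5511 in WT, with a median of 4279. In 3 HSD17B1-KI mice (1, 2 and 4) the value was below every WT mouse, and all 7 were below the WT mean, but the ranges overlapped. The log2 fold change was -0.32 (SE 0.12, 95% interval -0.58 to -0.06), which did not pass over all genes (limma-trend adjusted p = 0.377). The exact permutation p of 0.0256 was not adjusted, and when 1 mouse was left out it was at most 0.0593, being above 0.05 without HSD17B1-KI 1 or 4 or WT 4 or 8. Igf1os, antisense to Igf1, had a mean of 8.86 normalized counts.

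Igf1r (ENSMUSG00000005533, chromosome 7, 67952827 to 68233668, plus strand) encodes the receptor of IGF1, present in most cells of the ovary. It was between 1928 and 3746 normalized counts in HSD17B1-KI, with a median of 2479, and between 1964 and 4246 in WT, with a median of 3290. HSD17B1-KI 1, 5 and 6 stood near the lower end and the other 4 mice of the group were spread over the WT range. Between the genotypes the log2 fold change was -0.19 (SE 0.20, 95% interval -0.60 to 0.23, limma-trend adjusted p = 0.806), and the exact permutation p was 0.385.

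**Figure D3:**
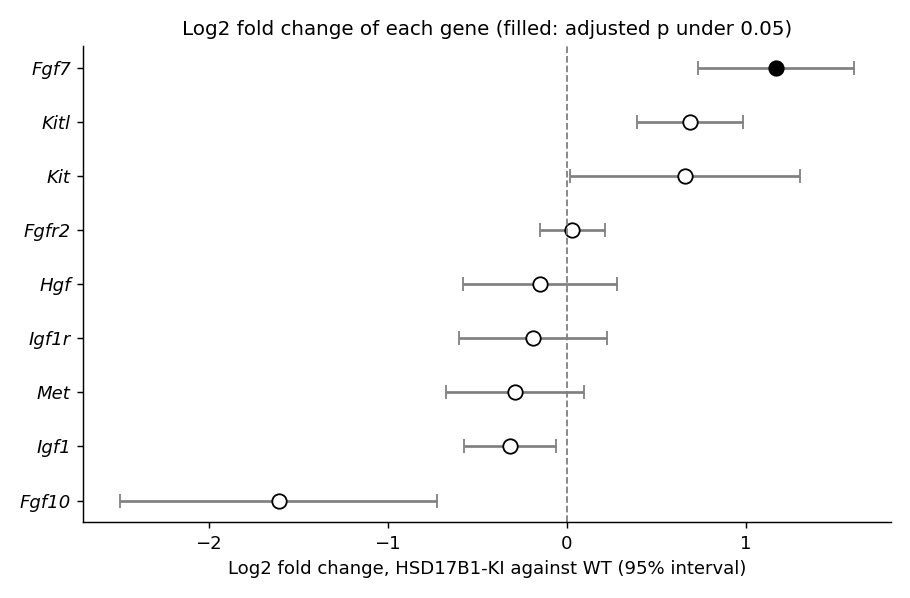
Log2 fold changes of the 9 genes, HSD17B1-KI against WT, from limma-trend on log2(normalized count + 1), with their 95% intervals and filled points for an adjusted p under 0.05. Fgf7, at 1.17, is the only filled point, and the intervals of Fgfr2, Hgf, Met and Igf1r include 0.

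Levels of different genes were set side by side as normalized counts per kilobase of exon. In WT, Kitl had the highest level, 871 per kilobase, followed by Fgfr2 at 511, Igf1 at 442, Kit at 348 and Igf1r at 186. Met at 86.6, Fgf7 at 39.2, Fgf10 at 15.3 and Hgf at 11.5 per kilobase followed. In HSD17B1-KI the level per kilobase was 1384 for Kitl, 578 for Kit and 88.3 for Fgf7, beside 521 for Fgfr2 and 69.2 for Met, while Fgf10 at 5.42 came behind Hgf at 10.6 and was the lowest. The exon length of Fgfr2 includes exons of the transcripts that run into Ctbp2, which can lower its level per kilobase and leaves its place beside Kit and Igf1 uncertain. These places in the order are a description of means, and neighbours such as Kit and Fgfr2, or Fgf7 and Met, were not tested against each other.

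The ligand to receptor ratio was then taken within each mouse, as the difference of log2(normalized count + 1), in which the size factor cancels except for the added count of 1, which weighs at low counts. For Kitl to Kit the ratio was 0.80 ± 0.75 in HSD17B1-KI and 0.78 ± 0.52 in WT, and the difference of 0.03 was well within the spread (exact permutation p = 0.936). Without HSD17B1-KI 5, whose ratio was the highest, the difference was -0.21. The spread is thus too wide to show an equal balance. For Fgf7 to Fgfr2 the ratio was -4.27 ± 0.38 in HSD17B1-KI and -5.40 ± 0.39 in WT, a difference of 1.14, with all 7 HSD17B1-KI mice above every WT mouse (exact permutation p = 0.000155). For Fgf10 to Fgfr2 it was -7.99 ± 0.88 and -6.35 ± 0.74, a difference of -1.64, with 5 HSD17B1-KI mice below every WT mouse (exact permutation p = 0.00295). With an added count of 0.1 or 10 in place of 1, this difference was -1.69 or -1.27. The ratios of the FGFR2 ligands to their receptor thus stood in opposite directions, and the receptor, which is subtracted, contributed -0.03 to each difference. The Fgf10 to Fgfr2 ratio hence mostly restates Fgf10, which did not pass limma-trend (adjusted p = 0.135). With the adipose markers as a covariate, the log2 fold change of Fgf10 was -0.89 (limma-trend adjusted p = 0.752), and the ratio was not fitted with this covariate. Hgf to Met differed by 0.14 (exact permutation p = 0.402) and Igf1 to Igf1r by -0.13 (exact permutation p = 0.512), both within the spread of the mice. These 5 tests were not adjusted for each other.

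A ratio of Fgf7 to Fgf10 was added after the values had been seen. It was 3.73 ± 0.91 in HSD17B1-KI and 0.95 ± 0.73 in WT on the log2 scale, a 6.85-fold difference with no overlap between the groups. Expressed as a share, Fgf10 made up between 2.71% and 13.8% of the normalized counts of both ligands in HSD17B1-KI (median 5.52%), and between 19.1% and 46.1% in WT (median 36.3%). As the ratio was chosen for its values, it is given with no test. It was not fitted with the adipose covariate, with which the log2 fold change of Fgf10 was -0.89 and that of Fgf7 was 1.23. Fgf10 was highest, at 132 and 111, in WT 1 and WT 8, the mice with the highest oviduct markers.

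**Figure D4:**
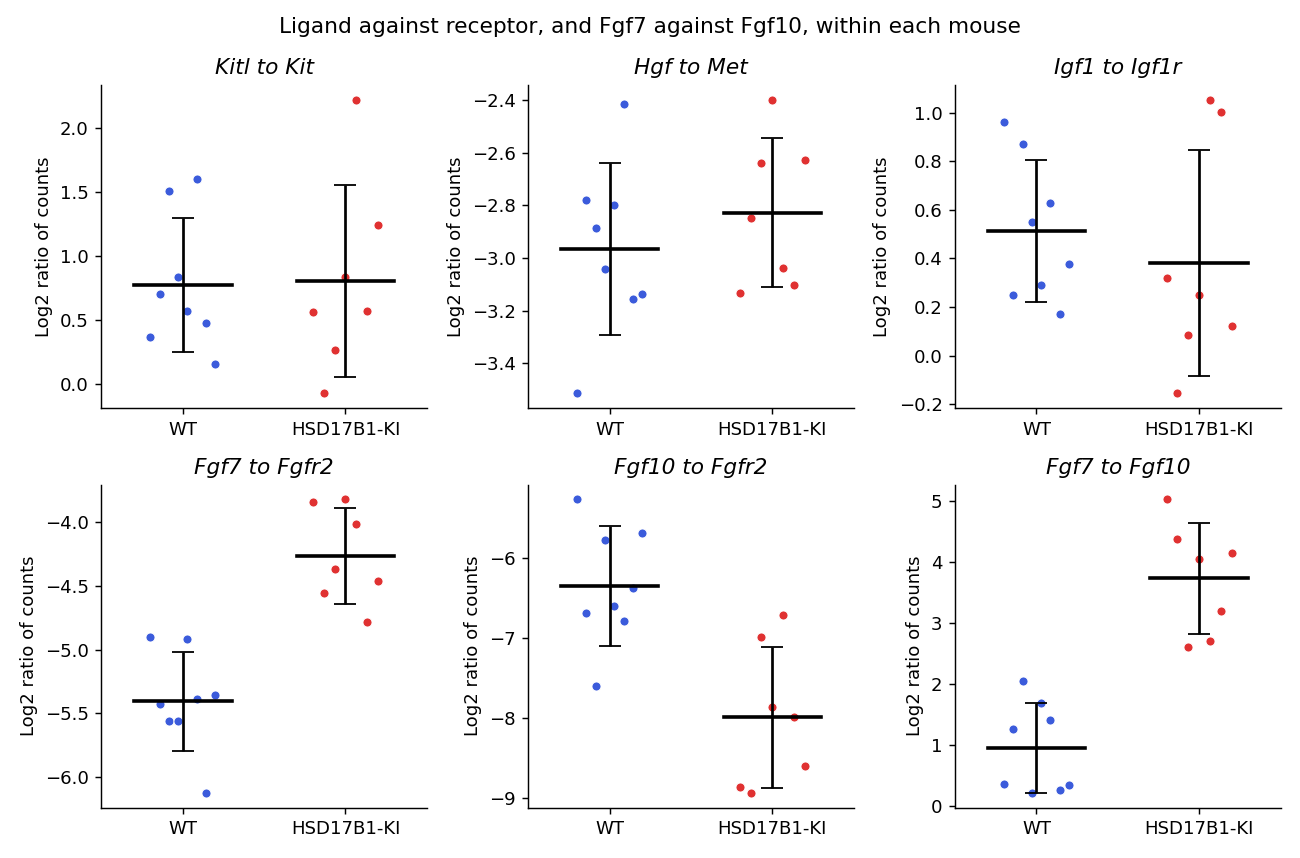
Log2 ratio of each ligand to its receptor, and of Fgf7 to Fgf10, in each mouse (points), with the mean and SD of each genotype. Fgf7 to Fgfr2 and Fgf7 to Fgf10 show no overlap between HSD17B1-KI and WT, whereas the Kitl to Kit means, 0.80 and 0.78, are nearly equal, with widely spread values.

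The other genes of these pathways were read from fixed lists, and limma-trend called none of their genes in either direction. For all 21525 genes, the median log2 fold change was -0.02, with 1154 genes higher and 999 lower at an unadjusted p under 0.05, or 10% in all, and the counts of the lists are to be read against this share. Genes named for an unadjusted p alone were chosen after their values were seen. Of the 16 other FGF ligands listed, 8 were tested, with a median log2 fold change of -0.29, and 2 (Fgf1 and Fgf9) were lower at an unadjusted p under 0.05. Fgf1 was at 453 ± 239 in HSD17B1-KI and 1655 ± 1680 in WT (log2 fold change -1.45), and Fgf9 was at 42.0 ± 5.37 and 66.8 ± 29.8 (-0.55). Fgf16 had the second largest difference of the list (-0.88) and no unadjusted p under 0.05. Among 7 FGF receptors and cofactors the median was -0.09, with 1 higher (Fgfr4) and 1 lower (Klb) at an unadjusted p under 0.05. Fgfr4 was at 667 ± 115 in HSD17B1-KI and 467 ± 168 in WT (log2 fold change 0.57), and the largest differences were those of the klotho genes, coreceptors of the endocrine FGFs. Klb was at 9.69 ± 8.22 in HSD17B1-KI and 29.0 ± 15.2 in WT (log2 fold change -1.70), and Kl was at 80.0 ± 54.5 and 187 ± 142 (-1.13). Feedback and response genes downstream of the receptors, 18 in number, had a median of -0.04, and 1 of them, the transcription factor gene Etv5, was higher at an unadjusted p under 0.05 (log2 fold change 0.32). The largest differences, those of the cyclin Ccnd1 (-0.53) and the FGF antagonist Il17rd (-0.38), had no unadjusted p under 0.05. None of these 3 lists held a gene called by DESeq2.

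In the remaining lists, of 13 to 20 genes, DESeq2 called 1 gene each, against 2.30% of all genes it tested, and limma-trend called none of these 4 genes. Hgfac, which encodes the protease that activates pro-HGF, was at 60.8 ± 26.0 in HSD17B1-KI and 129 ± 63.0 in WT, with 5 HSD17B1-KI mice below every WT mouse (adjusted p = 0.0351 with DESeq2 and 0.218 with limma-trend). The list of HGF activation and MET partners held 13 genes with a median log2 fold change of -0.35, of which 3 (Hgfac, Plat and Mst1r) were lower and none higher at an unadjusted p under 0.05. Some genes of this list varied widely in WT, such as St14 (313 ± 140 in HSD17B1-KI and 680 ± 579 in WT) and Spint1 (335 ± 139 and 700 ± 660). The part of single WT mice in the median was not tested. Igfbp7, a secreted IGF-binding protein, was at 22460 ± 1832 in HSD17B1-KI and 17980 ± 1935 in WT (adjusted p = 0.00593 with DESeq2 and 0.0903 with limma-trend), in a list of 18 genes of the IGF system with a median of -0.10. In this list 2 genes were higher at an unadjusted p under 0.05 (Igfbp7 and Igfbp2, the latter with a log2 fold change of 0.82) and 2 were lower (Igfbp5, -0.44, and Stc1, -0.98). Fyn, a kinase of the SRC family that acts downstream of KIT, was at 6829 ± 640 and 5418 ± 475, with 6 HSD17B1-KI mice above every WT mouse (adjusted p = 0.00236 with DESeq2 and 0.0757 with limma-trend), and the median of its list of 17 genes was -0.01, with 2 higher (Fyn and Akt1) and 1 lower (Socs6) at an unadjusted p under 0.05. Gas6, the ligand of the TAM receptor kinases, was at 134600 ± 58700 and 62810 ± 25950 (adjusted p = 0.0343 with DESeq2 and 0.266 with limma-trend) among 20 other ligands of the follicle with a median of -0.14, of which 1 (Gas6) was higher and 2 (Tgfa and Pdgfb) were lower at an unadjusted p under 0.05.

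Finally, the genes whose pattern was most like each member were sought by Pearson's r over the 15 mice after the mean of each genotype had been taken off, among the 15059 genes whose mean was 50 normalized counts or more. All points share the libraries, and the values are a description. Kit stood closest to Serpina3c (r = 0.95), Pde8b (0.94) and Ephx1 (0.94), a serpin of a multigene family, a cAMP phosphodiesterase and an epoxide hydrolase. Kitl stood closest to Dap (0.93), P4ha1 (0.89) and Bub3 (0.88), and Fgf7 to Nlgn1, Tdrkh and Nipal2 (each 0.84). Fgf10 was most like Slc2a4 (0.90), the insulin-responsive glucose transporter of fat and muscle, Ifi205 (0.87) and the receptor gene Met (0.87). Met itself was most like Sort1 (0.92), Sox6 (0.91) and Negr1 (0.89). Igf1r had the highest values of all, with Wdfy3 (0.98), Dnajc16 (0.96) and Herc2 (0.96), and Igf1 stood with Fam102b, Cdk14 and Zfp36l2 at 0.84 to 0.85. Fgfr2 was most like Chrna4 (0.89), Rarb (0.87) and Foxo4 (0.84), and Hgf like Pde4dip (0.89), Mgat3 (0.89) and Zfp626 (0.87). No ligand had its own receptor among its 3 closest genes.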

How the data were processed

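Ovarian mRNA of 15 mice was sequenced from stranded libraries. After trimming, the authors aligned reads with STAR 2.7.3 to mm10, counted them on genes and deposited a normalized signal (counts divided by a size factor) for 27907 genes. The counting program, its strand setting and the annotation are not given in the sources used here. Whole reads were recovered for 100% of the values within 0.01 of a step, and were used for edgeR and DESeq2.

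The genotypes were compared with limma-trend on log2(normalized count + 1) over the 21525 genes that averaged 2 or more, two-sided, with genotype as the only term and Benjamini-Hochberg adjustment over all genes at 0.05. With the added count of 1, fold changes of low genes are understated. Single values were compared with exact permutation tests, not adjusted. Members and lists were chosen with earlier results of these data known.

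The text names the 9 genes, list genes called by limma-trend or DESeq2 (otherwise the 2 with the largest difference), the 3 genes most like each member, and marker genes. List genes named for an unadjusted p were added after their values were seen. Alternatives were pseudocounts of 0.1 and 10, no filter or a filter at 10, other scalings, array weights, edgeR, DESeq2, a replicate block, an oviduct marker covariate and each mouse left out. Added after the data were seen were adipose and surface epithelium covariates, leaving out WT 1 and WT 8, and the Fgf7 to Fgf10 ratio. Positions came from GENCODE M21 and RefSeq. The fits were tested on simulated data. Fits ran in R 4.3.3 (DESeq2 1.42.0, edgeR 4.0.16, limma 3.58.1), and tables in Python 3.11.15 (pandas 2.3.3, NumPy 2.4.6).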

Additional observations from a re-analysis of the deposited data

How the results depend on the processing

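The number of genes called over the whole table moved most. It was 46 with limma-trend, 28 without the filter and 28 with quantile normalization, 125 with array weights, 10 with the surface epithelium markers as a covariate, 9 without WT 1 and WT 8, 146 at an adjusted p under 0.1, and 456 with DESeq2. With the adipose markers as a covariate limma-trend called 0 genes (1300 at an unadjusted p under 0.05, and 50 called by edgeR and 456 by DESeq2 without the covariate). Leaving out 1 mouse gave 6 (HSD17B1-KI 2 left out) to 139 genes (HSD17B1-KI 5 left out).

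Kitl kept its direction throughout, with a log2 fold change of 0.63 with array weights (limma-trend adjusted p = 0.0338), 0.67 with DESeq2 and 0.60 to 0.73 with 1 mouse left out. Over 28 alternatives without the block, its adjusted p was between 0.00143 and 0.397, that of Fgf7 between 8.9e-06 and 0.202, and that of Fgf10 between 0.0256 and 0.752. Fgf7 was at 1.23 with the adipose covariate, 1.28 without WT 1 and WT 8, and 1.06 to 1.26 with 1 mouse left out. Fgf10 was at -1.49 with DESeq2 and -1.85 to -1.44 with 1 mouse left out. Hgf turned to 0.038 with the adipose covariate. Fgfr2 was between -0.014 and 0.068 with 1 mouse left out, negative only without WT 2 (exact permutation p between 0.438 and 0.959), and the Kitl to Kit difference was between -0.21 and 0.17. The causes were not tested.

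Mice with the same replicate number did not deviate together in every pair (r of -0.55 to 0.55 over 7 numbers, own number best for 1), and the main fit took the numbers as names. With 7 pairs, this check cannot exclude that mice of the same number share an origin or a batch. With the replicate block limma-trend called 0 genes (1730 at an unadjusted p under 0.05), the log2 fold change of Fgf7 was 1.20 (adjusted p = 0.202), and the Kitl to Kit difference was -0.062. Fgf10 had the fewest reads of the 9 genes, 8 to 69 per HSD17B1-KI mouse.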

Other observations

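Other cells of the ovary were read through their marker lists, of which limma-trend called no gene. Over all 21525 genes, 1154 were higher and 999 lower at an unadjusted p under 0.05, or 10% in all, and DESeq2 called 2.30% of the 19790 genes it tested. Of the 6 theca and interstitial markers, 2 were higher at an unadjusted p under 0.05, Insl3, a peptide hormone of theca cells, at 67.7 ± 35.5 normalized counts in HSD17B1-KI and 26.8 ± 5.84 in WT (adjusted p = 0.00233 with DESeq2 and 0.110 with limma-trend), and Tcf21, with a log2 fold change of 0.32. The 10 granulosa markers had a median log2 fold change of 0.28 and none at an unadjusted p under 0.05, among them Amh (0.30), Foxl2 (0.26) and Fshr (-0.05). The summed level of the theca markers was between 15510 and 75420 normalized counts in HSD17B1-KI and between 15100 and 39520 in WT. Its upper end was mostly Cyp17a1, the androgen-making enzyme of theca cells, which was between 224 and 56550 in HSD17B1-KI and between 107 and 21610 in WT (log2 fold change 1.88, limma-trend adjusted p = 0.734), whereas Ptch1, Gli1 and Nr2f2 had log2 fold changes of 0.04 to 0.15. The sum of the granulosa markers was between 93070 and 274900 and between 114200 and 245300.

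The 6 luteal markers had a median log2 fold change of 0.44, with Sfrp4 at 1.51 (limma-trend adjusted p = 0.286) and Parm1 at -0.74. All 6 smooth muscle markers and all 6 markers of the surface epithelium had negative log2 fold changes, with medians of -0.35 and -0.45 and 2 genes each at an unadjusted p under 0.05. The medians were near 0 for stroma (-0.03) and endothelium (0.03) and 0.13 for macrophages. Among the mast cell markers, Hdc, which makes histamine, had a log2 fold change of -1.16 (adjusted p = 0.0385 with DESeq2 and 0.380 with limma-trend), whereas Fcer1a had a log2 fold change of 1.03.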
